A study of Mus musculus with 6 samples.

Results

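Lipid-handling and tissue-remodelling macrophage genes were followed kidney by kidney in mouse kidney allografts. The 10 genes Mmp12, Arg1, Spp1, Gpnmb, Trem2, Cd36, Fabp5, Cd5l, Lpl and Apoe were chosen by name, from 31537 genes listed in any of the matrices, and all 10 are among the 28208 genes that every matrix lists. Their raw unique molecular identifiers (UMIs, 1 per captured transcript) were summed per kidney in macrophage-like, monocyte-derived and patrolling monocyte-like cells, and those of Spp1 in tubular cells as well.

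Macrophages that take up dead cells and lipoproteins have to store, export or burn the lipid they ingest, and many of them switch on a shared set of scavenger, lipid-binding and lysosomal genes. Monocytes that enter an injured tissue can also produce proteases and matrix proteins that remodel it. In the kidney, resident macrophages lie between the tubules, while monocytes arrive with inflammation. Lipoprotein lipase (Lpl), the scavenger receptor Cd36, the fatty acid chaperone Fabp5 and apolipoprotein E (Apoe) handle lipid. Trem2 is a lipid-sensing receptor, and Gpnmb a membrane glycoprotein of lipid-laden and lysosome-rich cells. Mmp12 is macrophage metalloelastase, Arg1 hydrolyses arginine, and Cd5l is a secreted protein of tissue macrophages. Spp1 encodes osteopontin, a secreted integrin ligand made by macrophages and by tubular epithelium.

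The study sequenced single cells of 6 kidneys by droplet capture, 2 per group. Naive kidneys were untransplanted kidneys of male C57BL/6 (B6) mice aged 10 to 12 weeks. Rejecting kidneys were BALB/c kidneys placed in wild-type B6 males whose own kidneys had both been removed, and the recipients got no treatment. Tolerized kidneys were BALB/c kidneys in the same kind of recipient that also received BALB/c splenocytes fixed with ethylenecarbodiimide (ECDI) by vein, 7 days before and 1 day after transplantation. The labels give an age of 6 to 7 weeks for both transplanted groups, and these grafts were taken on day 15. A graft holds cells of donor and recipient origin, which were not separated here. Naive and transplanted kidneys differ in strain, age and the gene list of their matrices, so transplantation and these differences cannot be told apart. The labels do not say more about the 2 kidneys of a group than their replicate number, and p-values measure the spread between these kidneys.

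Of 60181 barcodes, 45667 cells were kept, 5608 to 10483 per kidney. The median depth per cell ran from 2535 UMIs in the first rejecting kidney to 7294 in the second tolerized kidney, and both tolerized kidneys were deeper than both rejecting kidneys. The naive kidneys had the highest median mitochondrial shares, 25.5% and 24.9%, against 5.39% to 13.7% in the grafts. Libraries shared few barcodes. There were 111 between the naive kidneys, 18 to 35 between any pair of grafts and 0 to 4 between a naive kidney and a graft. The source of this split between naive kidneys and grafts was not tested.

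There were 36 and 99 macrophage-like cells in the naive kidneys, 1023 and 1093 in rejecting against 839 and 225 in tolerized grafts. All 15 macrophage markers, such as C1qa and Adgre1, were detected in every kidney, with a summed level of 27793 to 30466 raw CPM (UMIs scaled to a fixed total of the class, without further normalization) in the grafts. They fell into 4 clusters, and the cluster with the most cells differed between grafts. A cluster led by Slc40a1, Spic and Vcam1 held 632 of the 1023 cells of the first rejecting kidney. A cluster led by Gdf15, Ccl7 and Mrc1 held 735 of the 1093 of the second rejecting kidney. A cluster led by Stab1, Cd93 and Siglec1 held 292 of the 839 of the first tolerized kidney, and 125 of the 225 cells of the second tolerized kidney belonged to the Slc40a1 cluster.

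Graft clusters with 3 or more markers of macrophages and 3 or more of classical monocytes formed a class called monocyte-derived here, which numbered 568 and 580 cells in rejecting against 506 and 149 in tolerized grafts. A cluster led by Saa3, Lyz1 and Mmp12 held 328, 368, 250 and 82 of them and carried 4 macrophage and 6 classical monocyte markers. A cluster led by Chil3, Fn1 and Vcan held 240, 212, 256 and 67. It carried 3 macrophage and 12 classical monocyte markers, and its 10 leading genes included 7 classical monocyte and no macrophage markers, so its profile was mainly that of classical monocytes. For Mmp12, Cd36 and Lpl the results are therefore also given for the Saa3 cluster alone. Those of the other genes are given for the whole class. The 10 genes were kept out of the clustering, so Mmp12 leads the first of these by its level and not by its use. Patrolling monocyte-like cells, led by Ace, Slc12a2 and Adgre4, numbered 283 and 288 in rejecting against 316 and 160 in tolerized grafts. Only graft cells entered the clustering that defined these classes. In the naive kidneys cells were named from a clustering of all cells, which gave 34 and 26 classical monocyte-like cells, and no naive cell could be called monocyte-derived.

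The genes lie on 8 chromosomes of the mouse genome (GRCm38, GENCODE M21), and each is protein coding. Mmp12 spans 7344381 to 7369499 on the plus strand of chromosome 9, and Spp1 104435118 to 104441050 on the plus strand of chromosome 5. Cd36 shares chromosome 5 with Spp1 (17781690 to 17888801, minus strand), and Fabp5 (10012548 to 10016607) and Cd5l (87357881 to 87371073) share the plus strand of chromosome 3. Promoter sequence of 7 of the 10 genes was at hand in RefSeq (GRCm38.p6), for all but Arg1, Fabp5 and Lpl. The 250 bases before a RefSeq start are shown for Mmp12 (chr9:7347124-7347373, plus strand) and Spp1 (chr5:104434861-104435110, plus strand), the genes on which the comparisons turn. RefSeq gives 2 such windows for each of these genes, and the one with a motif match is shown. The other windows held neither motif. For Mmp12 that window (chr9:7344147-7344396) is the one at the start of the annotated gene, while the window shown lies inside it, and for Spp1 the other window is chr5:104435942-104436191. Capitals mark an AP-1 motif (TGANTCA, searched on both strands) in Mmp12 and a RUNX motif (AACCACA, both strands) in Spp1.
Mmp12: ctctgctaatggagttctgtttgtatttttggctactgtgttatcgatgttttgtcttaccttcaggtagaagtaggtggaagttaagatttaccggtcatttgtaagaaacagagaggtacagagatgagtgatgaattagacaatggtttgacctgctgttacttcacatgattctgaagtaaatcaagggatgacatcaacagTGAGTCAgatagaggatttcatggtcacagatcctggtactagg
Spp1: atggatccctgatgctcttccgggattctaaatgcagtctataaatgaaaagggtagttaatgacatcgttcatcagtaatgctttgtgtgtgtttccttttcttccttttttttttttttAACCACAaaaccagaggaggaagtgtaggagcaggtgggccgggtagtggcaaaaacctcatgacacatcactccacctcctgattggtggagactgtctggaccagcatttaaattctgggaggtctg
The AP-1 match begins 44 bases and the RUNX match 129 bases before the start that follows each window shown. Trem2 held an AP-1 match 9 bases and Gpnmb a RUNX match 176 bases before its start, and the windows of Cd5l, Cd36 and Apoe held neither. Of 32851 promoter windows of this length, 6.749% held the AP-1 letters and 4.396% the RUNX letters, so single matches of this kind are common and describe the letters only.

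The genes did not share 1 pattern across myeloid cells. Mmp12, Gpnmb, Arg1, Cd5l and Lpl had their highest mean level over the grafts in the Saa3 cluster of monocyte-derived cells. For Arg1 and Cd5l this rested on the second rejecting kidney, without which the Saa3 cluster had a mean of 0.703 raw CPM of Arg1 and 0.117 of Cd5l, and Cd5l was highest in the Gdf15 macrophage cluster (11.6). Without the first tolerized kidney Mmp12 was highest in the Pmepa1 cluster (133 raw CPM, against 116 in the Saa3 cluster) and Lpl in the Slc40a1 cluster (585 against 580). Trem2 and Apoe were highest in the Stab1 macrophage cluster, Cd36 in patrolling monocyte-like cells, Spp1 in a small macrophage cluster led by Pmepa1 and Il1a, and Fabp5 in Fscn1 and Ccl22 positive dendritic cells. These are descriptions of clusters built from the same cells.

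**Figure D1:**
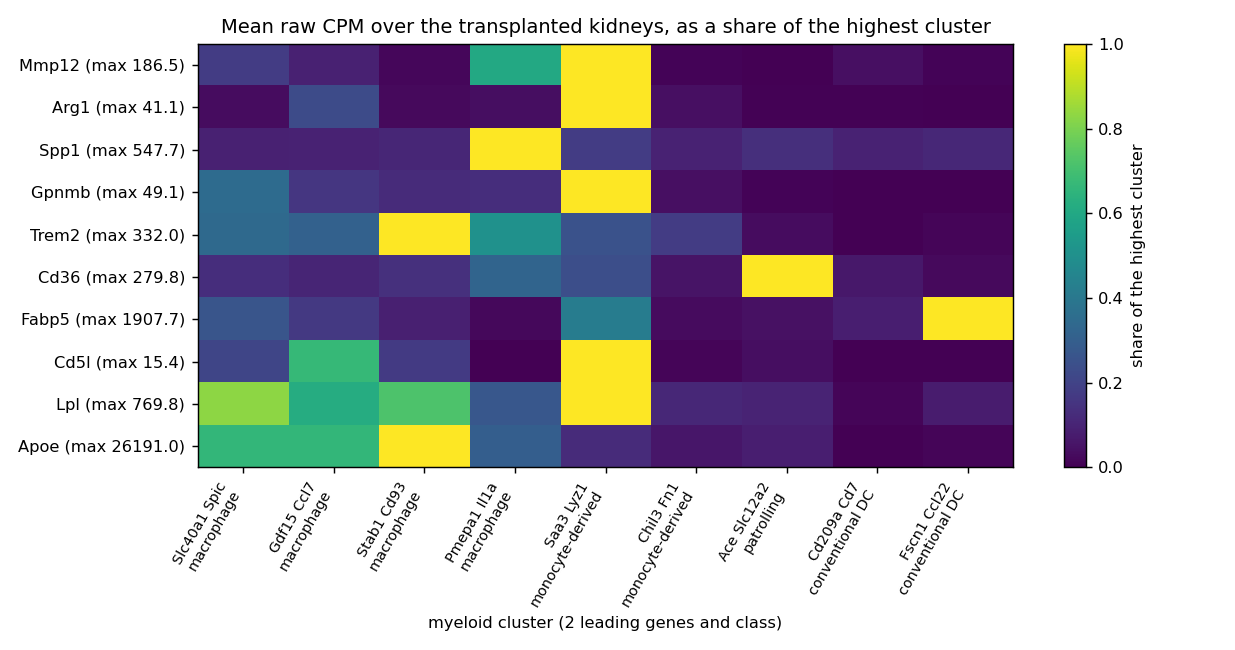
Mean raw CPM of each gene (rows) over the transplanted kidneys with 10 or more cells of a myeloid cluster (columns, named by 2 leading genes and their class), shown as a share of the gene's highest cluster. The brightest cell sits in the Saa3 cluster for 5 of the 10 genes (for Arg1 and Cd5l through the second rejecting kidney), in the Stab1 cluster for Trem2 and Apoe, and in 3 other clusters for Spp1, Cd36 and Fabp5.

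Mmp12 in the Saa3 cluster stood at a mean of 187 raw CPM, against 1.90 in the Chil3 cluster of the same class and 3.09 in the Stab1 macrophages. Lpl was more widely spread, with 770 raw CPM in the Saa3 cluster and 476 to 640 in the 3 large macrophage clusters. Trem2 reached 308 and 328 raw CPM in the Stab1 macrophages of the rejecting kidneys and 352 and 340 in those of the tolerized kidneys. The other macrophage clusters had means of 103 to 168. Apoe in the same Stab1 cells stood at 23054 and 27027 raw CPM in rejecting against 29998 and 24685 in tolerized grafts. The groups overlapped for Apoe.

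Fabp5 in the Fscn1 dendritic cells was 1428 and 2633 raw CPM in rejecting against 2233 and 1337 in tolerized grafts, again with overlapping groups. In the Saa3 cluster its mean was 798. Cd36 in patrolling monocyte-like cells had a mean of 280 raw CPM, against 14.4 to 89.7 in the macrophage and monocyte-derived clusters.

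Over 44 sums of a cluster in a graft (13 clusters), Trem2, Apoe and Lpl ran together, with a Pearson r of log2(raw CPM + 1) of 0.901 for Trem2 and Apoe, 0.821 for Trem2 and Lpl, and 0.801 for Lpl and Apoe. The points share libraries and depth, so these values are descriptions. Among 10734 genes, the one most like Apoe was the complement receptor C5ar1 (r = 0.933), followed by the protease Ctsb and the macrophage marker Adgre1. Lpl was closest to Cndp2, Ctsd and Creg1 (r = 0.857 to 0.874), and Fabp5 to Pdcd1lg2, a checkpoint ligand (r = 0.849). Mmp12 had no close neighbour. Its nearest genes were Mif, Atp5g1 and Prdx1 (r = 0.657 to 0.665). The nearest to Gpnmb were Ralgds, Mmp2 and Cyba (r = 0.717 to 0.720), and the nearest to Cd36 was Ptpre (r = 0.714). Spp1 was nearest to Chchd10 and Gatm (r = 0.650 and 0.632), Arg1 to Prdx3 (r = 0.603), and Cd5l to Fcna (r = 0.629).

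**Figure D2:**
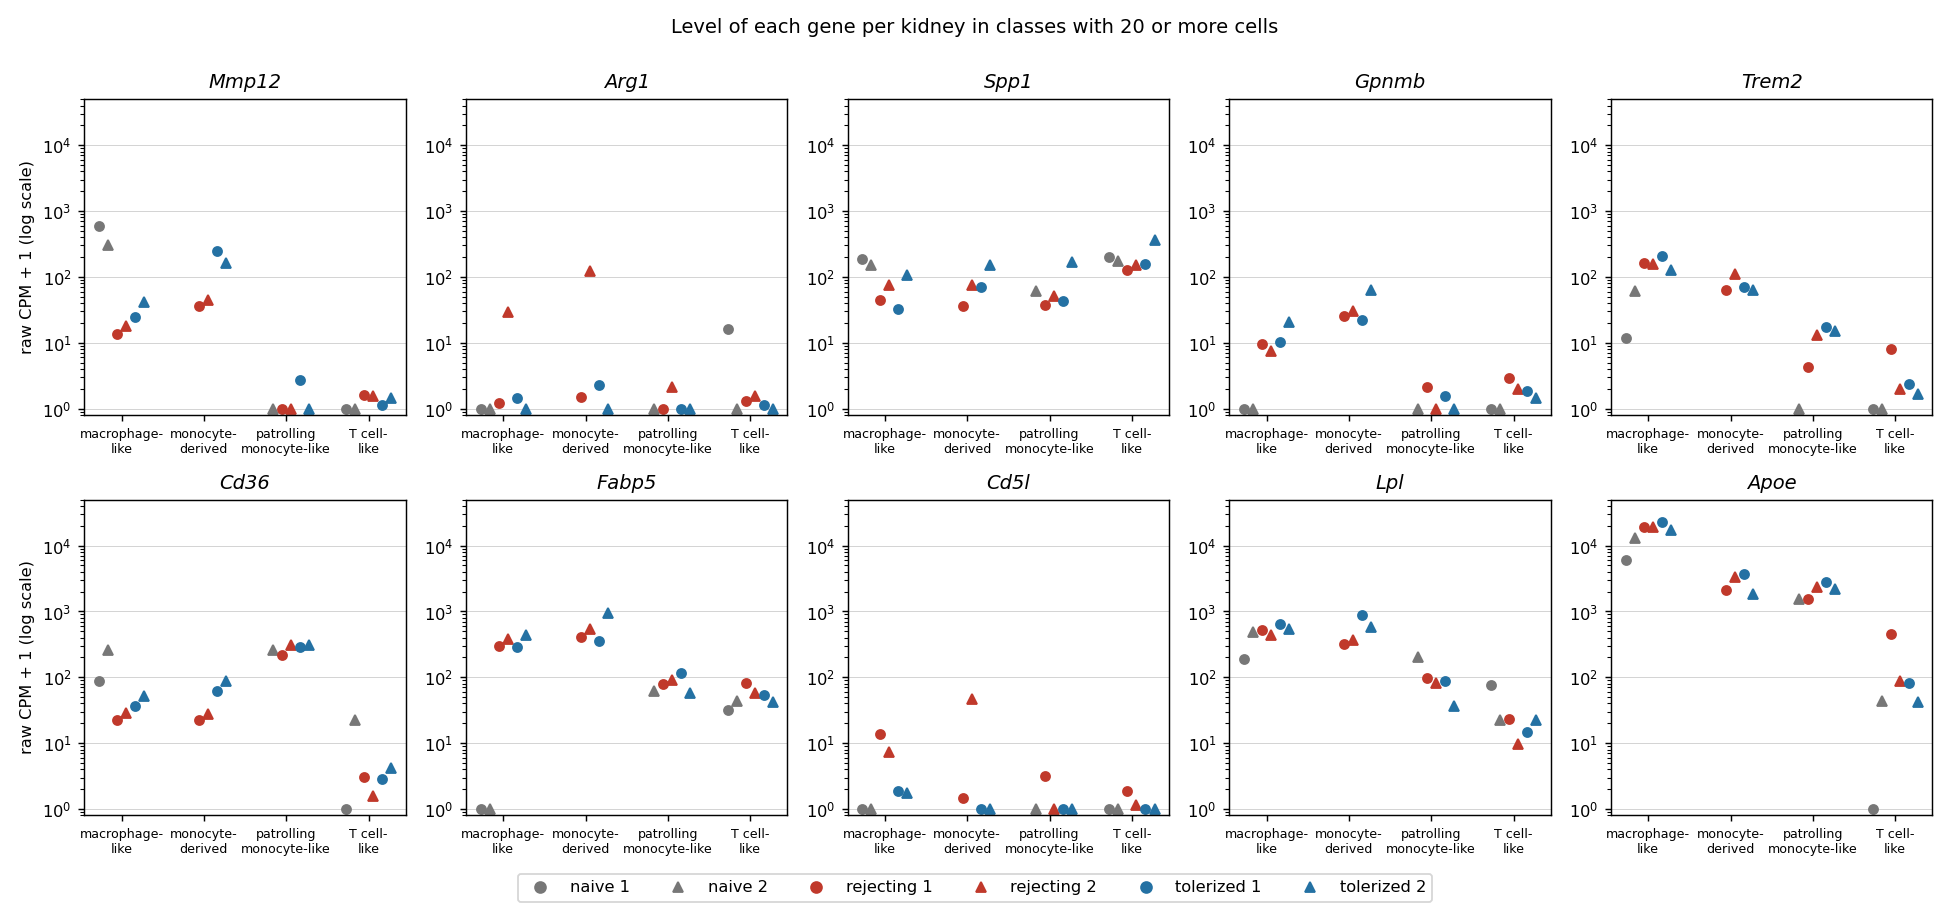
Raw CPM + 1 (log scale) of each gene in each kidney with 20 or more cells of the class, for macrophage-like, monocyte-derived, patrolling monocyte-like and, as background, T cell-like cells. Mmp12 and Cd36 in monocyte-derived cells are higher in both tolerized than in both rejecting kidneys, Arg1 stands out in the second rejecting kidney, and Spp1 in myeloid cells lies below the T cell-like cells of the same graft.

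Rejecting and tolerized kidneys were then compared, to ask which of these genes differ between the grafts of untreated recipients and those of recipients given donor splenocytes. In monocyte-derived cells Mmp12 was lower in rejecting than in tolerized kidneys. Its level, in CPM normalized by the trimmed mean of M values (TMM), was 34.3 and 41.8 in rejecting against 245 and 175 in tolerized grafts. The groups did not overlap. The mean was 38.0 ± 5.33 against 210 ± 49.5 (SD, n = 2 each), a log2 fold change of -2.47 (SE 0.237, adjusted p = 0.0368 by edgeR's quasi-likelihood test), or 5.54-fold lower in the rejecting kidneys. Of 9769 genes tested in these cells Mmp12 was the only one called at an adjusted p under 0.05, a background of 0.0102%.

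With each kidney left out in turn, the log2 fold change ran from -2.69 to -2.20. Mmp12 was called in 11 of 15 alternatives in all (-3.05 to -1.99). These 11 include the fits with a kidney left out, where the lone kidney of a group is assumed to vary like the others. They also include the fit without a filter on low counts. Such fits called many more genes than the main fit, so a call kept in them is weak evidence. The 4 without a call, all by edgeR's quasi-likelihood test, were coarser clusters (adjusted p = 0.0589), finer myeloid clusters (adjusted p = 0.178), the sum of all myeloid cells of a kidney (adjusted p = 0.175) and a fit with the replicate number as a block (adjusted p = 0.189). The coarser clusters put the Stab1 cells in the class, and the finer ones left out a cluster led by Saa3, Gm15056 and Gpnmb. The part of this in the lost calls was not tested. The study describes 2 experiments in which kidneys of the groups were processed together. The labels do not say whether the replicate number is that of the experiment. In the Saa3 cluster alone the level was 49.0 and 55.3 TMM CPM in rejecting against 396 and 262 in tolerized grafts (log2 fold change -2.66, SE 0.254, adjusted p = 0.0321 by edgeR's quasi-likelihood test). In the Chil3 cluster Mmp12 was too low to test. Most Mmp12 of the class lay in the Saa3 cluster (mean 187 raw CPM, against 1.90 in the Chil3 cluster). The fit of the Saa3 cluster thus reuses the same UMIs and is no independent support. The limits of the class were set after that fit had been seen. Neither the adjusted p of the class nor that of the cluster therefore comes from a test fixed beforehand.

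Few cells carried the Mmp12 transcripts. In the rejecting kidneys 142 UMIs lay in 14 of 568 cells and 184 UMIs in 26 of 580 cells. In the tolerized kidneys 1372 UMIs lay in 56 of 506 cells and 297 in 14 of 149. The richest cell of a kidney held 57, 27, 201 and 86 of these UMIs, and the 2 to 6 richest cells of a kidney held as many as all its other cells together or more. Without its richest cell the raw level was 20.8 and 37.5 CPM in rejecting against 212 and 116 in tolerized grafts. The groups still did not overlap.

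With each cell thinned to 1000 UMIs, 0.891% (95% exact Clopper-Pearson interval 0.290 to 2.07) and 1.38% (0.598 to 2.70) of the monocyte-derived cells of the rejecting kidneys held an Mmp12 UMI. In the tolerized kidneys the shares were 5.20% (3.42 to 7.53) and 5.37% (2.35 to 10.3). The interval of the second rejecting kidney overlapped that of the second tolerized kidney, and intervals cover counting error only. From 0 to 7 cells per kidney were too shallow to be thinned. Unthinned, the shares were 2.46% and 4.48% against 11.1% and 9.40%. In T cell-like cells, which should lack the gene, the thinned shares were 0.144% and 0.133% in the rejecting kidneys and 0 of 1583 and 0 of 814 cells in the tolerized kidneys, which allows up to 0.190% and 0.369%. Median depths were 6050.5 to 10582 UMIs in monocyte-derived cells and 1260 to 4756 in T cell-like cells.

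**Figure D3:**
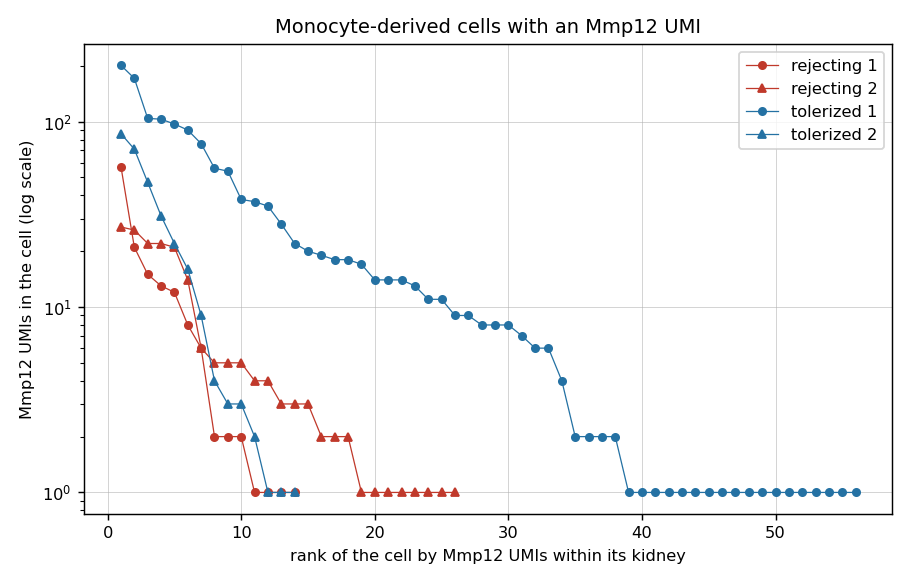
Mmp12 UMIs (log scale) of each monocyte-derived cell with at least 1 such UMI, ranked within its kidney. The first tolerized kidney has 56 such cells with up to 201 UMIs, while the rejecting kidneys have 14 and 26 such cells with at most 57 UMIs.

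The lipid genes Cd36 and Lpl had lower values in the rejecting kidneys as well, without passing the test. Cd36 was at 21.5 and 25.9 TMM CPM in rejecting against 60.8 and 92.4 in tolerized grafts. Lpl was at 318 and 357 against 867 and 628. The groups did not overlap for either gene. The log2 fold change was -1.67 for Cd36 (SE 0.253, adjusted p = 0.296 by edgeR's quasi-likelihood test) and -1.15 for Lpl (SE 0.221, adjusted p = 0.310). In the Saa3 cluster alone the log2 fold changes were -1.95 and -1.35 (adjusted p = 0.102 and 0.286). Both genes were called in the class by DESeq2's Wald test (adjusted p = 0.000582 and 0.00221), which called 35 genes. With cells thinned to 1000 UMIs, Cd36 was found in 2.14% and 2.76% of cells in rejecting against 4.20% and 6.04% in tolerized grafts. For Lpl these shares were 15.9% and 16.9% against 25.2% and 14.8%, so by this measure the groups overlapped. In the second tolerized kidney 6 of the 149 cells held as many Lpl UMIs as all its other cells together or more. T cell markers, which stand for RNA or cells of another type, summed to 134 and 34.1 raw CPM in rejecting against 13.5 and 15.2 in tolerized grafts. Proximal tubule markers summed to 800 and 537 against 856 and 1375, with all 15 detected in each kidney. Their part in these differences was not tested.

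The levels of the other tested genes did not separate the groups in monocyte-derived cells. Fabp5 was at 408 and 512 TMM CPM in rejecting against 348 and 1032 in tolerized grafts, and Gpnmb at 23.9 and 27.7 against 20.7 and 67.7. The second tolerized kidney was the highest for both. Trem2 was at 61.6 and 106 against 68.0 and 66.5, and Apoe at 2074 and 3213 against 3604 and 2021. Fold changes on the log2 scale were -0.58 ± 0.423 (SE) for Fabp5, -0.67 ± 0.463 for Gpnmb, 0.31 ± 0.264 for Trem2 and -0.09 ± 0.315 for Apoe, with adjusted p of 0.893 to 0.984 by edgeR's quasi-likelihood test. The direction of all 4 turned when 1 kidney was left out. In the second tolerized kidney 3 of 149 cells held as many Fabp5 UMIs as all its others together or more. Thinned to 1000 UMIs, 11.6% and 12.6% of cells in rejecting against 10.2% and 9.40% in tolerized grafts held Fabp5. Thinned to 2000 UMIs, these shares were 20.7% and 19.0% against 13.4% and 14.4%. By both, the rejecting kidneys were higher, opposite in sign to the fold change. Unthinned shares overlapped, and shares were not tested.

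Of the 10 genes 8 were tested in monocyte-derived cells, since Arg1 and Cd5l fell below the filter on low counts. The median log2 fold change of the 8 was -0.86, against -0.00081 over all genes tested. Both rejecting kidneys were below both tolerized kidneys for 3 of them (Mmp12, Cd36 and Lpl), against a background of 17.7% of genes, and none of the 8 was above. An unadjusted p under 0.05 was reached by 4 of them, against 6.60% of all genes. The members that passed the filter are not all members, and the 10 genes were chosen with earlier results of these data known. These counts therefore describe the tested members only and are no test of the set.

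In macrophage-like cells Mmp12, Cd36, Lpl and Gpnmb had lower values in the rejecting kidneys, and none was called. Mmp12 was at 12.4 and 16.1 TMM CPM in rejecting against 23.8 and 42.3 in tolerized grafts. On the log2 scale the difference was -1.16 (SE 0.296, adjusted p = 0.748 by edgeR's quasi-likelihood test). The 2 or 3 richest cells of each kidney again held as many of these UMIs as all its other cells together or more. Cd36 was at 20.8 and 26.8 against 35.9 and 53.7 (-0.88, SE 0.248), and Gpnmb at 8.40 and 6.37 against 9.40 and 20.6 (-0.92, SE 0.382). Lpl was at 512 and 423 against 648 and 572 (-0.38, SE 0.192). The groups did not overlap for any of these 4 genes by level, against a background of 16.7% of genes lower without overlap. Gpnmb in the second tolerized kidney rested on 54 UMIs in 7 of 225 cells, 23 of them in 1 cell. Without the richest cell of each kidney its raw level was 7.63 and 5.84 CPM against 7.98 and 11.3. Thinned to 1000 UMIs, 0.706% and 0.738% of cells held Gpnmb in rejecting against 0.608% and 0.889% in tolerized grafts. By this share the groups overlapped.

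Of 10964 genes tested in macrophage-like cells edgeR called 0 (percent called: 0), with 565 (5.15%) at an unadjusted p under 0.05, while DESeq2 called 23. Mmp12 was not called by DESeq2 (adjusted p = 0.225). Apoe, the apolipoprotein that carries cholesterol out of macrophages, was at 18705 and 18385 TMM CPM in rejecting against 22693 and 17923 in tolerized grafts. Trem2 was at 157 and 149 against 208 and 135, Fabp5 at 297 and 366 against 287 and 454, and Spp1 at 43.1 and 71.5 against 32.2 and 112. All 4 overlapped between the groups, and each had a log2 fold change of -0.28 to -0.13 whose direction turned with some kidney left out.

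Cd5l went the other way in macrophage-like cells. It was at 12.6 and 6.06 TMM CPM in rejecting against 0.862 and 0.762 in tolerized grafts. The groups did not overlap (background 17.1% of genes higher without overlap). In both tolerized kidneys the level was under the limit of the filter on low counts. Cd5l thus entered this fit through the rejecting kidneys alone. The lack of overlap and its direction follow from that and are no support. Rejecting minus tolerized, Cd5l was 3.45 on the log2 scale (SE 0.520, adjusted p = 0.277 by edgeR's quasi-likelihood test). DESeq2's Wald test called it (adjusted p = 0.0019). Both p-values come from counts that passed the filter in this way and are no support either. The counts were small. There were 111 UMIs in 23 cells and 58 in 17 cells of the rejecting kidneys, against 10 in 7 cells and 2 in 2 cells of the tolerized kidneys, and 1 cell of the first rejecting kidney held 57. Without the richest cell of each kidney, the raw levels of Cd5l were 6.25 and 4.11 CPM against 0.515 and 0.364. T cell markers in these cells summed to 127 and 29.5 raw CPM in rejecting against 20.8 and 18.8 in tolerized grafts, and their part in the difference was not tested.

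Arg1 was seen mainly in the second rejecting kidney. In monocyte-derived cells it had 2 and 513 UMIs in rejecting against 7 and 0 in tolerized grafts. The 513 UMIs lay in 32 cells, the richest of which held 84, and 29 of the 32 cells belonged to the Saa3 cluster. In macrophage-like cells the counts were 2, 260, 5 and 0, and 139 of the 260 UMIs came from 1 cell. The 0 of the second tolerized kidney allows up to 2.01% of its 149 monocyte-derived cells to hold a UMI. Cd5l in monocyte-derived cells was of the same kind, with 191 UMIs in 4 cells of the second rejecting kidney and 2, 0 and 0 UMIs in the first rejecting and the tolerized kidneys. For Arg1 the groups overlapped in both classes.

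Cells with an Mmp12 UMI and cells with an Arg1 UMI differed in the genes beside it, as seen in 1 kidney each with cells thinned to 2000 UMIs. In the first tolerized kidney 77.1% of 35 monocyte-derived cells with Mmp12 also held Lpl, against 31.1% of the other 456. Cd36 was in 25.7% against 3.51%, and Apoe in 34.3% against 65.8%. In the second rejecting kidney all 22 cells with Arg1 held Apoe (100%), against 52.9% of the other 546, and Trem2 was in 36.4% against 12.3%. Mmp12 was in 4.55% of the Arg1 cells against 2.38% of the others, 1 of the 22 cells. Cells of 1 kidney are not replicates and these shares were not tested. They were also not taken within a cluster. The class joins the Saa3 and Chil3 clusters, with 250 and 256 cells in the first tolerized kidney. Mean raw CPM over the grafts in these clusters was 187 against 1.90 for Mmp12, 770 against 85.7 for Lpl and 66.8 against 14.4 for Cd36. Apoe was also higher in the Saa3 cluster (3273 against 1588), unlike in the cells with Mmp12.

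Whether the change differed between the classes was tested directly. The difference of the log2 fold changes, monocyte-derived minus macrophage-like, was -1.44 for Mmp12 (SE 0.312, adjusted p = 0.226 by edgeR's quasi-likelihood test), -0.91 for Spp1 (SE 0.191, adjusted p = 0.218), -0.74 for Lpl (SE 0.163, adjusted p = 0.226) and -0.76 for Cd36 (SE 0.173, adjusted p = 0.247). None of the 10 genes was called, in a test that called 3 of 10702 genes (0.0280%). A call in 1 class and none in the other is therefore not shown to be a difference between them.

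**Figure D4:**
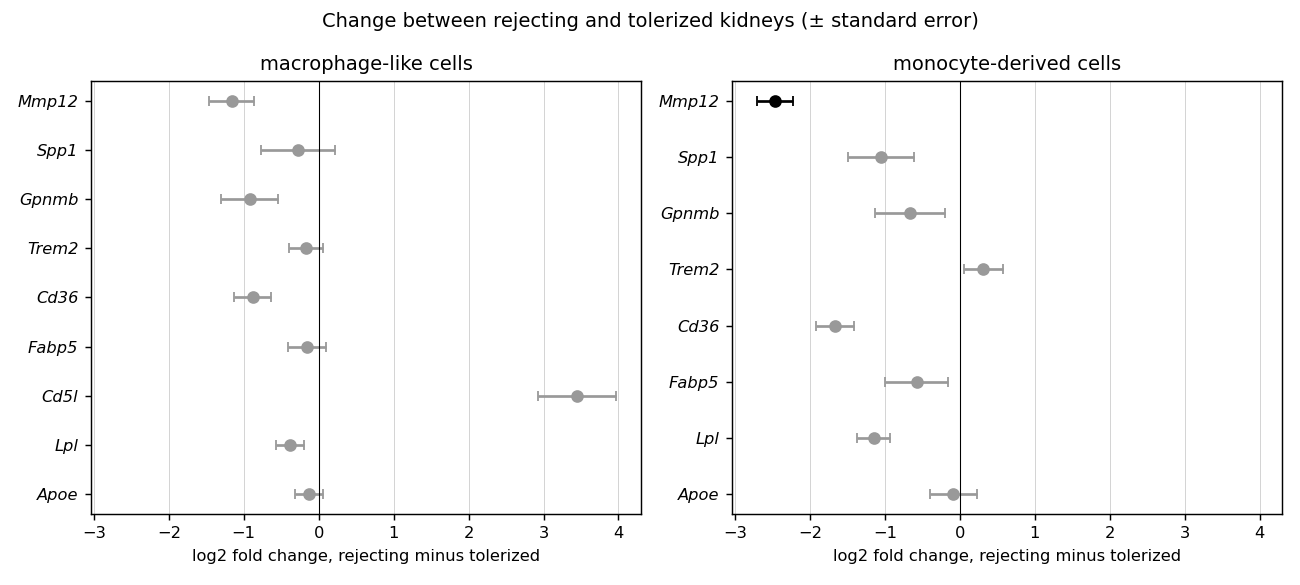
Log2 fold change (rejecting minus tolerized) of each tested gene in macrophage-like and monocyte-derived cells, with the standard error as bars, from edgeR. The black point is Mmp12 in monocyte-derived cells at -2.47, the only one called, and Cd5l in macrophage-like cells at 3.45 is the only point far to the right. Cd5l entered that fit through the rejecting kidneys alone, so its direction is no support.

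In patrolling monocyte-like cells 6 of the 10 genes were tested and none was called, nor was any of the 6951 genes (percent called: 0, with 418, or 6.01%, at an unadjusted p under 0.05 and 18 called by DESeq2). Cd36, which these cells carry at the highest level, was at 229 and 294 TMM CPM in rejecting against 290 and 327 in tolerized grafts. The log2 fold change of -0.24 (SE 0.228) was about the size of its error. Lpl was at 101 and 79.1 against 87.0 and 38.7, and Fabp5 at 81.1 and 85.5 against 114 and 61.0. Trem2 was at 3.48 and 11.8 against 16.4 and 15.2, and Apoe at 1615 and 2256 against 2836 and 2357. For these last 2 genes both rejecting kidneys were below both tolerized kidneys, against a background of 17.6%. Trem2 rested on 3 and 11 UMIs in rejecting against 29 and 13 in tolerized grafts. Without the richest cell of each kidney its raw level was 2.22 and 10.1 CPM against 14.2 and 7.73, and the groups overlapped. The raw levels of Apoe, 1542 and 2346 CPM against 2843 and 2191.5, overlapped as well. Mmp12, Arg1, Gpnmb and Cd5l had at most a few UMIs there and fell below the filter.

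The naive kidneys gave few macrophage-like cells, with a median depth of 2114 and 2863 UMIs, and their proximal tubule markers summed to 6806 and 6929 raw CPM against 191 to 924 in the grafts. Mmp12 was nevertheless at 590 and 303 raw CPM (54 and 91 UMIs), against 12.6 to 40.2 in macrophage-like cells of the 4 grafts. It was found in 47.2% (95% exact interval 30.4 to 64.5) and 21.2% (13.6 to 30.6) of naive cells thinned to 1000 UMIs, against 0.403% to 4% in the grafts. The classes compared are not alike. The naive cells were not split further, and 16 and 68 of them formed a cluster seen in the naive kidneys alone, led by Lilrb4a, Mmp13 and Cd14 with Mmp12 among its 10 leading genes. In the grafts the Saa3 cluster had been set apart, and the monocyte-derived cells that include it held 34.7 to 247 raw CPM of Mmp12. No other class of a naive kidney held more than 1 Mmp12 UMI, the 4825 and 3767 proximal tubule-like cells included. This difference between naive kidneys and grafts was not tested. Fabp5, Gpnmb, Arg1 and Cd5l had 0 UMIs in naive macrophage-like cells, which allows up to 32.8 and 9.98 raw CPM at 3 counts per kidney. For Fabp5 the grafts stood above this limit, at 285 to 431 raw CPM. Cd36 was at 87.4 and 256 raw CPM, Lpl at 186 and 492, Trem2 at 10.9 and 59.9 and Apoe at 6096 and 13160 in these naive cells.

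Spp1 in myeloid cells lay near the level of cell types that are not known for it. Macrophage-like cells held 43.9 and 74.0 raw CPM in rejecting against 32.0 and 107 in tolerized grafts. Endothelium-like cells held 44.6 and 35.2, and 27.1 and 151. T cell-like cells, of which some make osteopontin when activated, held 124 and 148, and 154 and 358.

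The second tolerized kidney was the highest of the grafts for Spp1 in each of these classes. In that kidney a Spp1 UMI was found in 62.2% of macrophage-like, 65.8% of monocyte-derived, 57.4% of T cell-like, 59.3% of B cell-like and 56.8% of endothelium-like cells, without thinning. Median depths there were 12043, 10582, 4756, 4351 and 5651 UMIs. In the other grafts the shares were 19.4% to 27.9% of macrophage-like, 13.7% to 25.4% of T cell-like and 17.3% to 19.1% of endothelium-like cells. Spp1 of macrophage-like cells as a whole was thus not set apart from that of these classes. Its log2 fold change was -1.05 in monocyte-derived and -1.29 in patrolling monocyte-like cells (adjusted p = 0.728 and 0.824 by edgeR's quasi-likelihood test). Higher values were found in the Pmepa1 macrophage cluster of the rejecting kidneys. There Spp1 reached 527 raw CPM (89 UMIs in 13 of 24 cells) and 1377 raw CPM (270 UMIs in 12 of 24 cells), against 67.9 and 219 in the 31 and 10 cells of the tolerized kidneys. Among all macrophage-like cells the richest held 70 of 380 Spp1 UMIs in the first and 237 of 685 in the second rejecting kidney. The cluster's counts cannot be reached without these cells, so both rejecting values rest mostly on 1 cell each. The groups were not compared without them.

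Tubular cells carried most of the Spp1, and the proximal tubule separated grafts from naive kidneys. In proximal tubule-like cells Spp1 was at 371 and 352 TMM CPM in the naive kidneys, 929 and 2332 in rejecting against 1378 and 1712 in tolerized grafts. All 4 grafts were above both naive kidneys, against backgrounds of 39.7% and 38.1% of genes. Spp1 rose by 2.17 on the log2 scale in rejecting against naive kidneys (SE 0.381, adjusted p = 0.0030) and by 2.09 in tolerized against naive kidneys (SE 0.380, adjusted p = 0.0048, both by edgeR's quasi-likelihood test), 4.51-fold and 4.27-fold. In these comparisons 41.8% and 31.9% of 12662 genes were called, with 22.7% and 16.9% of the genes called upwards. Both calls held in all 14 alternatives. Among these are fits with a kidney left out, in which the lone kidney of a group is assumed to vary like the others. The 2 comparisons share the naive kidneys. Naive and graft cells of this class lay mostly in different clusters. A cluster led by Inmt, Azgp1 and Slco1a1 held 1844 of 4825 and 1163 of 3767 naive cells. It held 0 cells of either rejecting kidney and 4 and 3 of the tolerized kidneys. A cluster led by Ubd and Nme2 held 0 naive cells and 1776 of the 2828 cells of the first rejecting kidney. No alternative took these clusters apart, and the part of this makeup was not tested.

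Between rejecting and tolerized kidneys the proximal tubule showed no separation. The difference on the log2 scale was 0.08 (SE 0.365, adjusted p = 0.967 by edgeR's quasi-likelihood test), with overlapping groups, and percent called was 0. Without the second rejecting kidney it was -0.75. The share of proximal tubule-like cells with a Spp1 UMI, thinned to 1000 UMIs, was 18.6% and 20.3% in naive, 42.6% and 60.2% in rejecting against 48.9% and 56.7% in tolerized grafts. The T cell-like level of Spp1 was 198 and 173 raw CPM in the naive kidneys, and 3 of the 4 grafts lay below both. Median mitochondrial shares of the proximal tubule-like cells were 25.4% and 24.8% in the naive kidneys and at most 21.6% in the grafts, and their part in the difference was not tested.

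**Figure D5:**
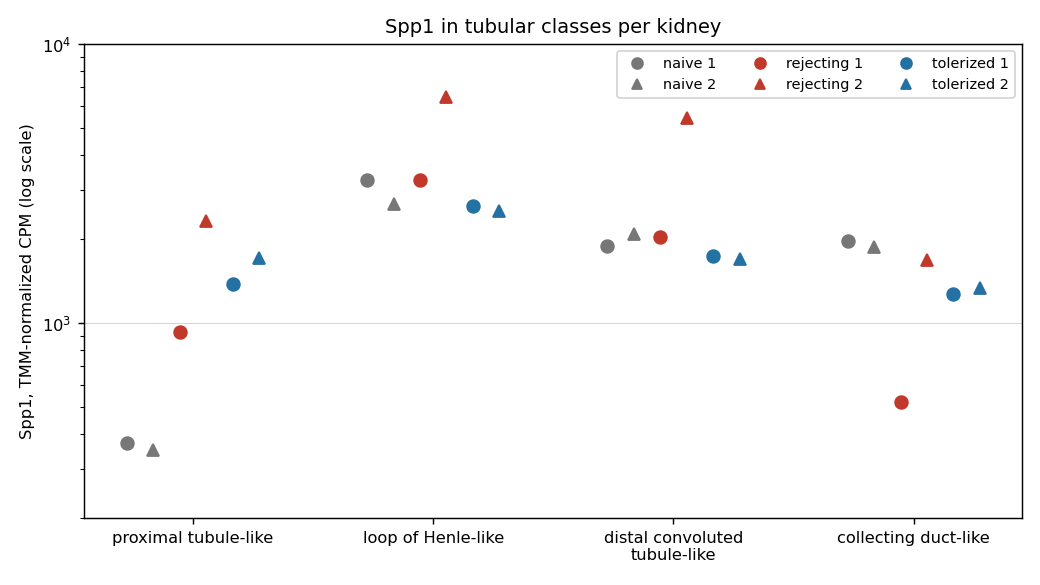
Spp1 in TMM-normalized CPM (log scale) in each kidney for the 4 tubular classes. In the proximal tubule all 4 grafts (929 to 2332) lie above the naive kidneys (352 and 371), and the second rejecting kidney is the highest in the proximal tubule, the loop of Henle and the distal convoluted tubule.

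The distal segments held more Spp1 than the proximal tubule in naive kidneys and showed no rise common to the grafts. Loop of Henle-like cells stood at 3245 and 2681 TMM CPM in the naive, 3269 and 6467 in rejecting against 2639 and 2523 in tolerized grafts. Distal convoluted tubule-like cells stood at 1895 and 2084, 2033 and 5444, and 1747 and 1694. In both segments the second rejecting kidney stood apart and the other 5 kidneys lay close together. The log2 fold change of rejecting against tolerized kidneys was 0.92 in the loop of Henle (SE 0.315, adjusted p = 0.495) and 1.12 in the distal convoluted tubule (SE 0.336, adjusted p = 0.237, both by edgeR's quasi-likelihood test). Both rejecting kidneys were above both tolerized kidneys, against backgrounds of 18.8% and 18.1%, and 0.142% and 0.555% of genes were called. Without the second rejecting kidney these values were 0.34 and 0.23.

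Collecting duct-like cells were the only one of the 4 tubular classes in which every graft was below both naive kidneys. Spp1 was at 1976 and 1877 TMM CPM in the naive, 522 and 1678 in rejecting against 1276 and 1334 in tolerized grafts. The log2 fold change against naive kidneys was -0.81 for rejecting (SE 0.406, adjusted p = 0.183) and -0.56 for tolerized kidneys (SE 0.403, adjusted p = 0.372, both by edgeR's quasi-likelihood test). The backgrounds of genes lower without overlap were 31.2% and 31.9%, with 19.8% and 16.8% called. With cells limited to at most 20% mitochondrial UMIs, the direction turned (0.14 and 0.17). The class joins a cluster led by Aqp2 and a cluster led by Atp6v1g3 and Slc26a4. The latter held 94 of 468 and 45 of 415 cells in the naive and 48 of 99 and 32 of 104 in the rejecting kidneys. In the tolerized kidneys it held 42 of 190 and 70 of 447. The part of this makeup in the Spp1 values was not tested.

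Other genes of the same pathways were taken from 6 lists, and no gene of any list was called by edgeR in macrophage-like or monocyte-derived cells. The lists were chosen with earlier results of these data known, so their counts are descriptions. Among 31 tested genes of lipid uptake, storage and efflux, 15 had a positive and 16 a negative log2 fold change in monocyte-derived cells, with a median of -0.06 against -0.00081 over all genes. Both rejecting kidneys were below both tolerized kidneys for 9 of them and above for 3, against 17.7% and 18.3% of all genes. The nearest to a call was the lysosomal lipase Lipa, at 124 and 150 TMM CPM in rejecting against 185 and 226 in tolerized grafts (log2 fold change -0.59, adjusted p = 0.611 by edgeR's quasi-likelihood test). The cholesterol sensor Nr1h3 and the cholesterol exporter Abca1 had values of the other sign (0.73 and 1.14). The lysosome and TREM2 pathway list had 12 genes above and 14 below 0, with 4 above and 7 below without overlap. In it Gpr84 was at 45.6 and 20.2 against 16.6 and 13.5, and Itgax, Cd9 and Hcst had log2 fold changes of -0.55, -0.72 and -0.51.

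Of 25 tested genes of matrix remodelling, 13 were above and 12 below 0 in monocyte-derived cells. The 4 with the lowest p had the sign opposite to Mmp12, and an unadjusted p under 0.05 was reached by 5 genes above and 2 below 0. The transglutaminase Tgm2 was at 94.9 and 102 TMM CPM in rejecting against 60.8 and 38.2 in tolerized grafts (log2 fold change 0.95, adjusted p = 0.363 by edgeR's quasi-likelihood test). The membrane protease Mmp14 was at 119 and 108 against 75.1 and 68.2 (0.66, adjusted p = 0.463), and Mmp19 at 17.9 and 24.8 against 12.0 and 9.41. In macrophage-like cells 13 of the 25 were above and 12 below 0. Both rejecting kidneys were above both tolerized kidneys for 8 and below for 3 (background 17.1% and 16.7%), and an unadjusted p under 0.05 was reached by 6 above and 2 below 0. The collagenase Mmp13 and the protease inhibitor Timp3 had the same sign as Mmp12 (log2 fold changes of -1.28 and -1.63). Mmp13 was at 16.8 and 11.7 against 22.9 and 49.1, while Mrc1, a collagen and mannose receptor, was at 257 and 278 against 182 and 172.

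The list on arginine use and alternative activation also held inflammatory genes, such as Nos2, Tnf and Cxcl10. Its counts therefore do not stand for alternative activation alone. In monocyte-derived cells 17 of its 21 tested genes were above 0, against 49.9% of all genes, with a median of 0.45. Both rejecting kidneys were above both tolerized kidneys for 10 of them, 1 was below both, and 18.3% of all genes were above without overlap. Cxcl10, an interferon-induced chemokine, was at 1443 and 1818 TMM CPM against 893 and 1021 (log2 fold change 0.77, adjusted p = 0.426 by edgeR's quasi-likelihood test). The cytokine receptor Il4ra, Tnf and the checkpoint ligand Cd274 had log2 fold changes of 0.62, 0.71 and 0.66. In macrophage-like cells Nos2, which competes with Arg1 for arginine, was at 4.99 and 5.64 against 3.53 and 0.762. The osteopontin receptors were even (4 above and 4 below 0), with Itga4 and Itgav at 0.34 and -0.24. Of the resident macrophage genes beside Cd5l, 3 were above and 4 below 0 in monocyte-derived cells, among them Maf at -0.29. In macrophage-like cells 4 were above and 5 below (50.6% of all genes were above).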

How the data were processed

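Kidney cells of 2 naive, 2 rejecting and 2 tolerized mice were sequenced by the authors with droplet capture and aligned with Cell Ranger to mm10, per the labels and the submitters' processing notes. The deposited matrices hold raw UMI counts per gene and barcode. The 10 genes and the 6 added lists were chosen with earlier results of these data known.

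Barcodes passed with 500 or more UMIs, 250 or more genes and a mitochondrial share of 50% or less. Scrublet's own threshold marked 2 to 277 barcodes per kidney, so the highest scores were left out instead, at 0.8% per 1000 barcodes. Clusters (scanpy 1.11.5, Leiden resolution 1.5, 2500 variable genes without the 10 genes, 40 components) were named from fixed markers with 3 or more detected. Myeloid cells of the grafts were clustered a second time (resolution 0.6), because the first clusters joined macrophages and monocyte-derived cells. There a marker counted if it was in 25% of cells and at 0.75 of the mean or more. This step and its limits were set after the clusters, and the fit of the Saa3 cluster, had been seen.

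UMIs were summed per kidney and class and tested with edgeR 4.0.16 (quasi-likelihood, TMM, filterByExpr, Benjamini-Hochberg over all genes, threshold 0.05). DESeq2 1.42.0 was an alternative. On simulated counts for 200 changed genes, edgeR recovered 79% of 4-fold and 35% of 2-fold changes in monocyte-derived cells. It also called 8 unchanged genes there. With 200 genes changed, the Benjamini-Hochberg limit is looser than in the data, where 1 gene was called. The recovered shares therefore do not carry over to the data. All 10 genes were described in each comparison, and of each added list the 4 genes with the lowest p. Intervals are exact at 95%, and limits of a 0 are 3 counts. Total UMIs per kidney in the matrices were 34874702 to 96803926. Values of some genes that the rules would name are not reported here.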

Additional observations from a re-analysis of the deposited data

Results flagged for a closer look

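The Spp1 level of 2 tubular classes differed from that of the naive kidneys in opposite directions. In proximal tubule-like cells both transplanted groups were above the naive kidneys, by a log2 fold change of 2.17 for rejecting and 2.09 for tolerized kidneys. In collecting duct-like cells both were below them, at -0.81 and -0.56. The difference between the classes was not tested, and the collecting duct values passed no test. The collecting duct class joins 2 clusters whose shares differ between the kidneys. In the proximal tubule class naive and graft cells lay mostly in different clusters. The part of this makeup was not tested in either class. With cells of at most 20% mitochondrial UMIs the collecting duct values were 0.14 and 0.17.

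Fabp5 was also found in endothelium-like cells, which the comparisons did not use. Its raw level was 434 and 851 CPM in the rejecting and 569 and 233.8 CPM in the tolerized kidneys, against 40.8 and 34.8 CPM in the naive kidneys. The lowest graft value was thus above both naive values, as for 23.8% of 8634 genes in these cells. The class is not alike on both sides. A cluster led by Plat, Plpp1 and Ehd3 held 164 of 266 and 147 of 237 naive cells. It held 0 cells of either rejecting kidney and 0 and 1 of the tolerized kidneys. The part of this makeup was not tested. The difference was not tested.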

How the results depend on the processing

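With 2 kidneys a group, the number of genes called moved with most settings, and the causes were not tested. DESeq2 called 23 genes in macrophage-like, 35 in monocyte-derived and 18 in patrolling monocyte-like cells, and edgeR without a filter on low counts called 191, 248 and 2. In the first 2 of these unfiltered fits edgeR estimated no spread of each gene's own. Leaving out each kidney in turn gave 11 (without the second tolerized kidney) to 147 (without the second rejecting kidney) calls in macrophage-like, 9 to 178 in monocyte-derived and 22 to 98 in patrolling monocyte-like cells, with the same kidneys at the ends. The lone kidney of a group is then assumed to vary like the others. Monocyte-derived cells gave 0 calls at Leiden resolution 0.8, at resolution 1.0 of the second clustering, in the Chil3 and Vcan cluster alone and with all myeloid classes summed, and patrolling monocyte-like cells gave 2 with doublets kept. The fits of resolution 1.0, of single clusters and of a crossed block were added after seeing the data. A fit of all 6 kidneys was not made for monocyte-derived cells, since naive cells were not part of the clustering that defined them.

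The replicate block gave 0 calls in macrophage-like and in monocyte-derived cells, where Mmp12 then had an adjusted p of 0.189 by edgeR's quasi-likelihood test, and 2 calls in patrolling monocyte-like cells. Deviations of kidneys with the same number correlated at -0.106, -0.0708 and -0.0987 in these classes, so the values do not show a pairing. The study describes 2 experiments with groups processed together, and the labels do not tie the numbers to them, so a shared experiment was not tested further. With the numbers crossed, 133 genes were called in macrophage-like cells. For Spp1 in proximal tubule-like cells, rejecting minus tolerized, the replicate block gave a log2 fold change of -0.0095.

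Of the members' log2 fold changes in myeloid classes, 302 under an alternative kept direction and side of the threshold, 24 became calls, 4 lost a call and 23 turned sign. With single kidneys left out, those of macrophage-like cells ran from -0.97 to 0.83 for Spp1, -0.44 to 0.19 for Trem2, -0.45 to 0.21 for Fabp5 and -0.29 to 0.052 for Apoe. In monocyte-derived cells they ran from -1.39 to 0.31 for Gpnmb, -0.13 to 0.66 for Trem2, -1.17 to 0.40 for Fabp5 and -0.45 to 0.39 for Apoe. In patrolling monocyte-like cells they ran from -2.05 to 0.024 for Spp1 and -0.45 to 0.45 for Fabp5. At resolution 0.8 Trem2 was at 0.27 in macrophage-like and -0.28 in monocyte-derived cells, and Apoe at 0.052 in macrophage-like cells. There the Stab1 cluster (625 cells) was named monocyte-derived. At resolution 1.0 a cluster led by Saa3, Gm15056 and Gpnmb (341 cells) was named macrophage. The classes of these 2 settings are thus not those of the main fit. Fabp5 in monocyte-derived cells was at 0.53 at resolution 1.0 and 0.49 in the Chil3 and Vcan cluster alone. Its share of monocyte-derived cells differed by -2.25 percentage points without thinning, of the other sign than with it. With all myeloid classes summed, Trem2 was at 0.050, Apoe at 0.039 and Lpl at -0.495.

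For Spp1 in tubular cells 148 values kept direction and call, 13 became calls and 7 turned. With single kidneys left out, rejecting minus tolerized ran from -0.75 to 0.59 in the proximal tubule, 0.23 to 1.66 in the distal convoluted tubule and -1.33 to 0.36 in the collecting duct. Rejecting minus naive ran from 0.16 to 1.14 in the loop of Henle, 0.029 to 1.46 in the distal convoluted tubule and -1.88 to -0.19 in the collecting duct. The ends of these ranges came from leaving out 1 or the other rejecting kidney. Without the filter on low counts Spp1 was called in the loop of Henle at 0.89 (rejecting minus tolerized) and 0.79 (rejecting minus naive), in the distal convoluted tubule at 1.09 and 0.92, and in the collecting duct at -0.82 (rejecting minus naive). With at most 20% mitochondrial UMIs, rejecting minus naive was 2.33 in the distal convoluted tubule and 0.14 in the collecting duct, and tolerized minus naive 0.52 and 0.17.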

Other observations

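Lpl and Cd36 are also genes of capillary endothelium. In endothelium-like cells Lpl was at 329 and 432 raw CPM in the naive kidneys (266 and 237 cells), at 12.6 and 22.6 in the rejecting kidneys (115 and 51 cells) and at 11.7 and 21.9 in the tolerized kidneys (208 and 220 cells). All 4 grafts were below both naive kidneys for Lpl, as for 21.0% of 8634 genes. Cd36 was at 49.0 and 62.8 raw CPM in the naive, 16.7 and 65.3 in the rejecting and 11.7 and 74.9 in the tolerized kidneys, and its groups overlapped. The endothelium-like class is not alike in naive kidneys and grafts. A cluster led by Plat, Plpp1 and Ehd3 held 164 of the 266 and 147 of the 237 naive cells. It held 0 cells of either rejecting kidney and 0 and 1 of the tolerized kidneys. These values and the part of this makeup in them were not tested.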
